A study of Mus musculus with 11 samples.

Results

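The 10 transcripts described here mark the sinusoidal endothelium of the liver and were counted in RNA from isolated hepatocytes. They are *Stab1*, *Stab2*, *Lyve1*, *Flt4*, *Kdr*, *Gpr182*, *Oit3*, *Egfl7*, *Fcgr2b* and *Clec4g*. They were chosen by gene name as markers of that cell type, not by a threshold on any value, but with earlier results of these data known. They were found by their Ensembl identifiers among the 54232 genes counted. All 10 passed the filter on low counts, which left 13303 genes for testing. The libraries came from adult male C57BL/6 mice, all of them carrying floxed *Xbp1* alleles. In *Xbp1* LKO mice a Cre recombinase driven by the albumin promoter, which is active in hepatocytes and not in endothelial cells, deletes *Xbp1*, while *Xbp1* fl/fl mice were the controls. Mice of both genotypes received chow and plain water, or the HFS diet, a Western diet given with fructose and glucose in the drinking water, for at most 6 weeks. There were 3 chow-fed *Xbp1* fl/fl, 2 chow-fed *Xbp1* LKO, 3 HFS-fed *Xbp1* fl/fl and 3 HFS-fed *Xbp1* LKO libraries. Another chow-fed *Xbp1* LKO library of the study was not analysed here. Each chow library held RNA of 1 mouse and each HFS library a pool of 2 mice, and so only the HFS values are averages over animals. Hepatocytes had been purified by Percoll density centrifugation. Endothelial cells were neither sorted nor counted, and in such bulk libraries fewer endothelial cells and less RNA per endothelial cell cannot be told apart.

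Sinusoidal endothelial cells line the liver capillaries. They have open pores and no basement membrane, so plasma reaches the hepatocytes directly, and they are among the most active scavenger cells of the body. *Stab1*, *Stab2*, *Lyve1*, *Fcgr2b* and *Clec4g* encode surface receptors that take up or bind modified proteins, hyaluronan, immune complexes and glycans. *Flt4* and *Kdr* encode the VEGF receptors VEGFR-3 and VEGFR-2, *Gpr182* a scavenging chemokine receptor, and *Oit3* and *Egfl7* secreted proteins. In the healthy liver these genes are read chiefly in endothelium, and hepatocytes are not their usual source.

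The libraries held 19191032 to 23888401 counts. Values are given as CPM, counts per 1000000 counts of the library, scaled with edgeR's TMM factors. *Xbp1*, the deleted gene, had 194 to 221 CPM in *Xbp1* fl/fl on chow and 242 to 301 CPM on the HFS diet, against 95.7 and 128 CPM in *Xbp1* LKO on chow and 97.3 to 135 CPM on the HFS diet. The whole gene is counted, the deleted exon together with the others, and every *Xbp1* LKO library lay below every *Xbp1* fl/fl library. For the hepatocyte label, *Ttr* and *Apoa1* had at least 75365 counts in each library. The 8 bile duct markers summed to 5.16 to 18.7 CPM, most of it from *Spp1* (up to 14.1 CPM), *Wfdc2* (up to 7.69 CPM) and *Sox9* (up to 6.23 CPM), while *Krt19* and *Epcam* had at most 12 counts in a library. *Alb* transcripts made up 8.06% to 10.9% of counts in *Xbp1* fl/fl and 1.67% and 3.72% in *Xbp1* LKO on chow. On the HFS diet the shares were 5.88% to 7.42% and 3.33% to 5.40%. The first *Xbp1* fl/fl library on chow stood apart from the others of its group, with 119.7 CPM summed over the 10 transcripts against 50.4 and 63.3 CPM. It was also the highest of its group for markers of Kupffer cells (102 against 23.8 and 24.4 CPM summed) and stellate cells (66.6 against 19.9 and 24.7 CPM summed).

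All 10 transcripts were rare. Together they took 0.00349% to 0.0154% of the counts of a library, which were 669 to 3458 counts. Their summed level on chow was 119.7, 50.4 and 63.3 CPM in *Xbp1* fl/fl and 38.7 and 29.2 CPM in *Xbp1* LKO libraries. After HFS feeding it was 165, 97.5 and 136 CPM in *Xbp1* fl/fl and 124, 84.3 and 78.3 CPM in *Xbp1* LKO libraries. The groups thus averaged 77.8 ± 36.9 (SD, n = 3), 34.0 ± 6.72 (SD, n = 2), 133 ± 33.7 (SD, n = 3) and 95.7 ± 25.1 CPM (SD, n = 3) in that order. Both chow-fed *Xbp1* LKO libraries lay below all other libraries, and the highest and lowest of the 11 libraries differed 5.63-fold.

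The regions just upstream of the genes are shown because ETS, GATA and SOX factors are known regulators of endothelial genes. Any bearing of these regions on the levels in the libraries was not tested. RefSeq promoters of the GRCm38.p6 build were at hand for 7 of the 10 genes, all but *Lyve1*, *Gpr182* and *Oit3*, and the 250 bases before each start were searched on both strands. The ETS letters CAGGAA or CCGGAA occurred in 6 of the 9 promoters of these genes, those of *Stab1*, *Stab2*, *Kdr* and *Clec4g* and 2 of *Egfl7*, and in 35.0% of 32817 promoters of the same length. The GATA letters AGATAA were in 0 of the 9 and in 9.99% of all promoters, and the SOX letters AACAAT in 0 of the 9 and in 9.42%. Such a match is a description of the letters and not a binding site. The windows of the 3 genes with a match whose RefSeq start lay within 3 bases of the outermost GENCODE start follow, all from the minus strand and written toward the gene, with the ETS letters in capitals.
*Stab1*, chr14:31168642-31168891: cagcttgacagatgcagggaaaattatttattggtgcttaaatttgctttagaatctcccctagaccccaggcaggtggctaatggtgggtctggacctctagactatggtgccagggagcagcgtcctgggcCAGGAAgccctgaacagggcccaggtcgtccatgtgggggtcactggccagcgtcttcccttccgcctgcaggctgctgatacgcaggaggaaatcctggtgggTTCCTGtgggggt
*Clec4g*, chr8:3720652-3720901: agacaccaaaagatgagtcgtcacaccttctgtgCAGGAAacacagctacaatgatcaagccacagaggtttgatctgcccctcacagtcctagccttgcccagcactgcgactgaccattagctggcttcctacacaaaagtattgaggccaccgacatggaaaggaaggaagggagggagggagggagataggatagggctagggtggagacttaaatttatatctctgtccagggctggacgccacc
*Kdr*, chr5:75978456-75978705: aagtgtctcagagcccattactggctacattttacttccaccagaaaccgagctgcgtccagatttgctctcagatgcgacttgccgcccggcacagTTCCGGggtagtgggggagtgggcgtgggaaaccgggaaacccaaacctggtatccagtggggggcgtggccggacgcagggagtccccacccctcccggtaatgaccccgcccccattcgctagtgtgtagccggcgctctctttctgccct
In *Stab1* the letters began 117 and 13 bases before the start, in *Clec4g* 216 bases and in *Kdr* 153 bases before it.

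The scavenger receptors made up most of the signal. *Stab1*, a scavenger receptor for modified proteins (chromosome 14, 31139013 to 31168641), had 16.5, 6.07 and 8.81 CPM in chow-fed *Xbp1* fl/fl and 4.05 and 3.23 CPM in chow-fed *Xbp1* LKO libraries. On the HFS diet it had 22.6, 12.2 and 19.3 CPM in *Xbp1* fl/fl and 18.7, 7.85 and 9.32 CPM in *Xbp1* LKO libraries. The chow-fed *Xbp1* LKO libraries were the lowest of all, and the genotypes overlapped on the HFS diet. *Stab2*, which clears hyaluronan (chromosome 10, 86841198 to 87008025), had 27.0, 13.7 and 13.2 CPM in chow-fed *Xbp1* fl/fl and 12.5 and 9.83 CPM in chow-fed *Xbp1* LKO libraries. On the HFS diet the *Stab2* values were 38.4, 33.4 and 28.5 CPM in *Xbp1* fl/fl and 26.0, 33.2 and 19.1 CPM in *Xbp1* LKO libraries. It was the most abundant of the 10 in CPM in every library, and the gap on chow was narrow, from 12.5 to 13.2 CPM. *Lyve1*, the hyaluronan receptor shared with lymphatic endothelium (chromosome 7, 110850607 to 110863239), had 3.20, 1.10 and 1.59 CPM in chow-fed *Xbp1* fl/fl and 0.768 and 0.437 CPM in chow-fed *Xbp1* LKO libraries. With HFS feeding *Lyve1* reached 5.91, 1.78 and 3.18 CPM in *Xbp1* fl/fl and 2.16, 1.34 and 1.96 CPM in *Xbp1* LKO libraries. It rested on the fewest counts, 10 to 124 per library.

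*Fcgr2b* encodes the inhibitory receptor for immunoglobulin G (chromosome 1, 170958617 to 170976547), which sinusoidal endothelium uses to clear immune complexes. It had 13.3, 6.07 and 8.07 CPM in chow-fed *Xbp1* fl/fl, 4.99 and 2.84 CPM in chow-fed *Xbp1* LKO, 20.0, 11.4 and 16.4 CPM in HFS-fed *Xbp1* fl/fl and 15.2, 7.33 and 8.59 CPM in HFS-fed *Xbp1* LKO libraries. *Clec4g*, a C-type lectin known as LSECtin (chromosome 8, 3707064 to 3720651), had 11.8, 5.32 and 6.97 CPM, 3.63 and 3.10 CPM, 18.2, 7.89 and 12.7 CPM, and 13.0, 6.84 and 7.48 CPM in the same groups. Both were lower in the chow-fed *Xbp1* LKO libraries than in any other library. Part of the *Fcgr2b* coding sequence is shared with *Fcgr3*, an activating receptor of macrophages. Reads from that part could be split between both genes or dropped, depending on how the counts were made. The longest shared stretch was 129 bases, in exons 3 and 4 of 8 of *Fcgr2b* (chr1:170967980-170968081 and chr1:170966674-170966700, minus strand of GRCm38), and is shown whole because a read of 50 bases inside it has no single source.
*Fcgr2b* and *Fcgr3*, shared: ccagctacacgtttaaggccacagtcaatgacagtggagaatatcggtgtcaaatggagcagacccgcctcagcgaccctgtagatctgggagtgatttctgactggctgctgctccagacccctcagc
Of the distinct 50-base sequences of *Fcgr2b* transcripts, 4.38% occurred in another gene in the same orientation and 4.03% in the opposite one. *Fcgr3* itself had 0.116 to 1.57 CPM per library, below *Fcgr2b* in each of them. For *Egfl7* the share in the same orientation was 4.94%, with the predicted gene *Gm20532* and the microRNA gene *Mir126a* inside it, and for the other 8 transcripts at most 0.377%. In the opposite orientation it was 0.612% for *Egfl7* and at most 1.96% (*Clec4g*) for the other 8. Such sequences matter where counting did not use strand.

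*Flt4*, the receptor for VEGF-C and VEGF-D (chromosome 11, 49609263 to 49652739), had 9.76, 3.24 and 4.43 CPM in chow-fed *Xbp1* fl/fl and 1.79 and 1.44 CPM in chow-fed *Xbp1* LKO libraries. On the HFS diet *Flt4* stood at 12.8, 5.55 and 10.5 CPM in *Xbp1* fl/fl and 9.94, 5.65 and 7.51 CPM in *Xbp1* LKO libraries. No other of the 10 transcripts had as large a log2 difference between the chow-fed genotypes. *Kdr*, the main receptor for VEGF-A (chromosome 5, 75932827 to 75978458), had 14.6, 4.91 and 8.51 CPM in chow-fed *Xbp1* fl/fl, 4.74 and 3.36 CPM in chow-fed *Xbp1* LKO, 20.5, 9.98 and 19.8 CPM in HFS-fed *Xbp1* fl/fl and 16.1, 9.26 and 9.16 CPM in HFS-fed *Xbp1* LKO libraries. Here the chow-fed genotypes nearly met, at 4.91 and 4.74 CPM. *Gpr182* (chromosome 10, 127747276 to 127751732) had 8.33, 3.47 and 4.78 CPM, 2.52 and 1.92 CPM, 9.76, 5.29 and 10.2 CPM, and 7.82, 5.17 and 6.25 CPM in the same 4 groups. Its HFS-fed groups overlapped, with 2 of the 3 *Xbp1* fl/fl libraries above every *Xbp1* LKO library.

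*Oit3*, a secreted protein with a zona pellucida domain (chromosome 10, 59422958 to 59441778), had 11.3, 3.87 and 4.78 CPM in chow-fed *Xbp1* fl/fl, 2.52 and 1.84 CPM in chow-fed *Xbp1* LKO, 10.3, 7.23 and 9.70 CPM in HFS-fed *Xbp1* fl/fl and 11.2, 4.65 and 6.25 CPM in HFS-fed *Xbp1* LKO libraries. It alone of the 10 had its highest value in a chow-fed library, the first *Xbp1* fl/fl one. *Egfl7*, a matrix-bound factor of growing vessels (chromosome 2, 26580014 to 26593120), had 3.86, 2.66 and 2.19 CPM, 1.19 and 1.22 CPM, 6.29, 2.75 and 6.07 CPM, and 4.32, 2.97 and 2.68 CPM in the same groups. Its chow-fed *Xbp1* LKO libraries were nearly equal and the lowest of all.

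**Figure D1:**
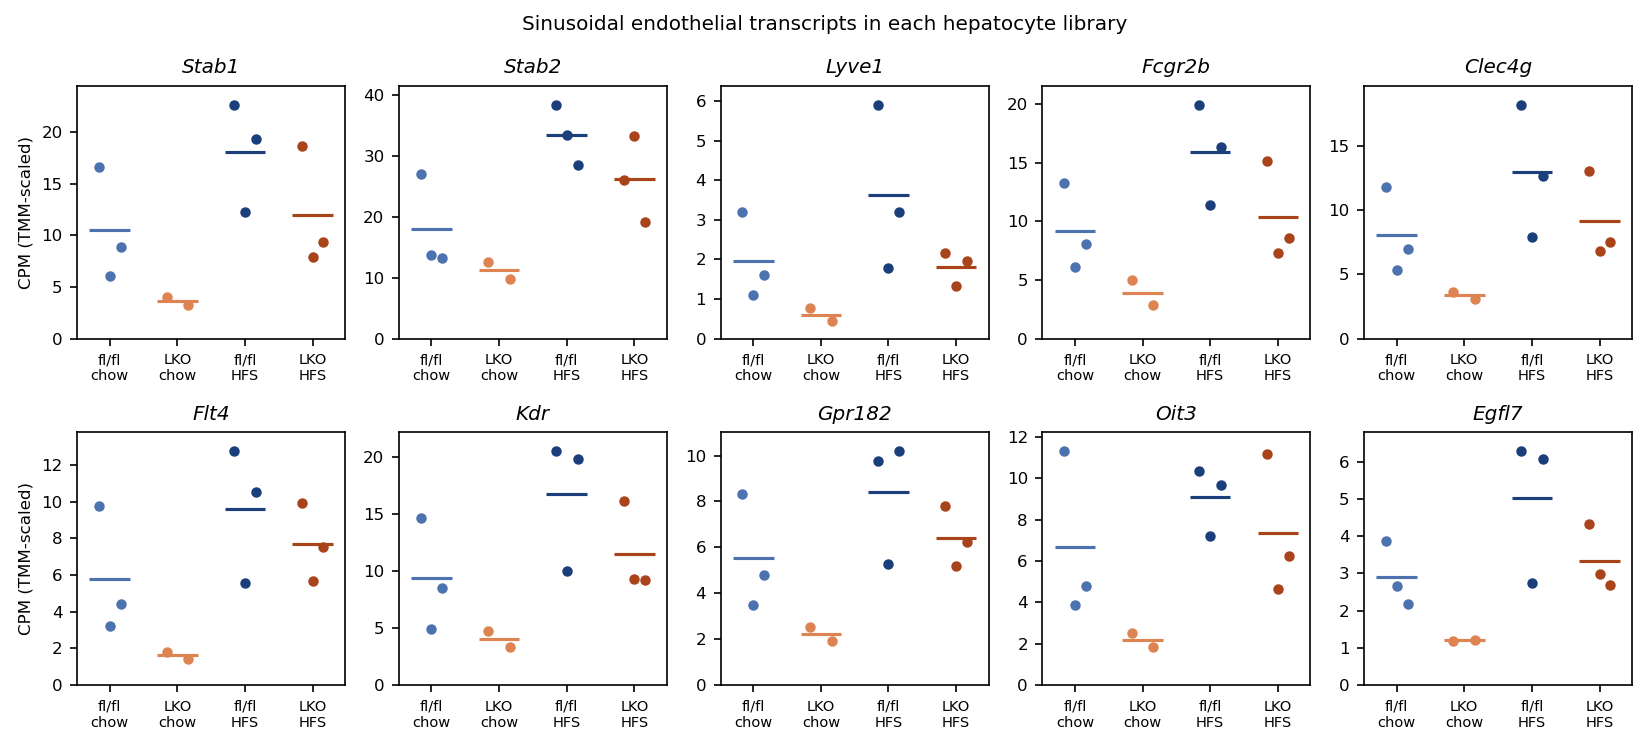
TMM-scaled CPM of each of the 10 transcripts (vertical axis, starting at 0) in each library, by group (horizontal axis: fl/fl and LKO, chow and HFS), with points for libraries and lines for group means. In each panel the 2 chow-fed LKO points lie below the 3 chow-fed fl/fl points and below the 3 HFS-fed LKO points, while the HFS-fed genotypes overlap.

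Per kilobase of exons, the order of the levels was much the same in each library. Over the 11 libraries *Clec4g* averaged 3.58 ± 1.87 CPM per kb (SD), *Stab2* 2.65 ± 1.13, *Oit3* 2.40 ± 1.25, *Fcgr2b* 1.79 ± 0.917 and *Gpr182* 1.51 ± 0.708. *Kdr* followed with 1.22 ± 0.660 CPM per kb, then *Stab1* with 1.14 ± 0.645, *Egfl7* with 0.919 ± 0.477, *Flt4* with 0.802 ± 0.460 and *Lyve1* with 0.729 ± 0.524. These SDs hold the differences between groups, and the order within a library varied less. *Clec4g*, *Stab2* and *Oit3* took ranks 1 to 3 in every library, *Fcgr2b* and *Gpr182* ranks 4 and 5, and the other 5 transcripts ranks 6 to 10. *Oit3* was above *Fcgr2b* in 11 of 11 libraries and *Gpr182* above *Kdr* in 11 of 11. All other neighbours changed places in some library: *Clec4g* was above *Stab2* in 9, *Stab2* above *Oit3* in 6, *Fcgr2b* above *Gpr182* in 9, and *Kdr* above *Stab1*, *Stab1* above *Egfl7*, *Egfl7* above *Flt4* and *Flt4* above *Lyve1* in 8 each. The low transcripts are therefore not separable from their neighbours here.

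Within groups, too, the transcripts went up and down together. On chow, the first *Xbp1* fl/fl library was the highest for all 10, by 1.59-fold (*Egfl7*) to 2.61-fold (*Oit3*) over the mean of the others. The first library was also the highest for 9 of 10 transcripts in chow-fed *Xbp1* LKO, in HFS-fed *Xbp1* fl/fl and in HFS-fed *Xbp1* LKO. The second library was the lowest for 8 transcripts in chow-fed *Xbp1* fl/fl, 9 in chow-fed *Xbp1* LKO, 9 in HFS-fed *Xbp1* fl/fl and 7 in HFS-fed *Xbp1* LKO. Over all 11 libraries the first HFS-fed *Xbp1* fl/fl library was the highest for 8 transcripts and the second chow-fed *Xbp1* LKO library the lowest for 9. The spread between replicates was therefore shared by the 10 transcripts, which do not count as 10 separate measurements of a group.

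*Stab2* departed most from the rest, a feature singled out after its values were seen. Its share of the summed CPM was 22.5%, 27.2% and 20.8% in *Xbp1* fl/fl and 32.4% and 33.6% in *Xbp1* LKO libraries on chow. After HFS feeding the share was 23.3%, 34.3% and 20.9% in *Xbp1* fl/fl and 20.9%, 39.4% and 24.4% in *Xbp1* LKO libraries. Its level minus the mean of the other 9 in the same library, on the log2 CPM scale, varied with an SD of 0.46 over the 11 libraries and spanned 1.28. The same SD was 0.13 (*Clec4g*) to 0.30 (*Lyve1*) for the other 9. The high shares were in both chow-fed *Xbp1* LKO libraries and in the second library of each HFS-fed group, so they followed no single genotype or diet. Without *Stab2* the summed level was 92.7, 36.7 and 50.1 CPM, 26.2 and 19.4 CPM, 126, 64.1 and 108 CPM, and 98.4, 51.1 and 59.2 CPM in the 4 groups, in the order used before. The order of the group means was the same as with it.

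**Figure D2:**
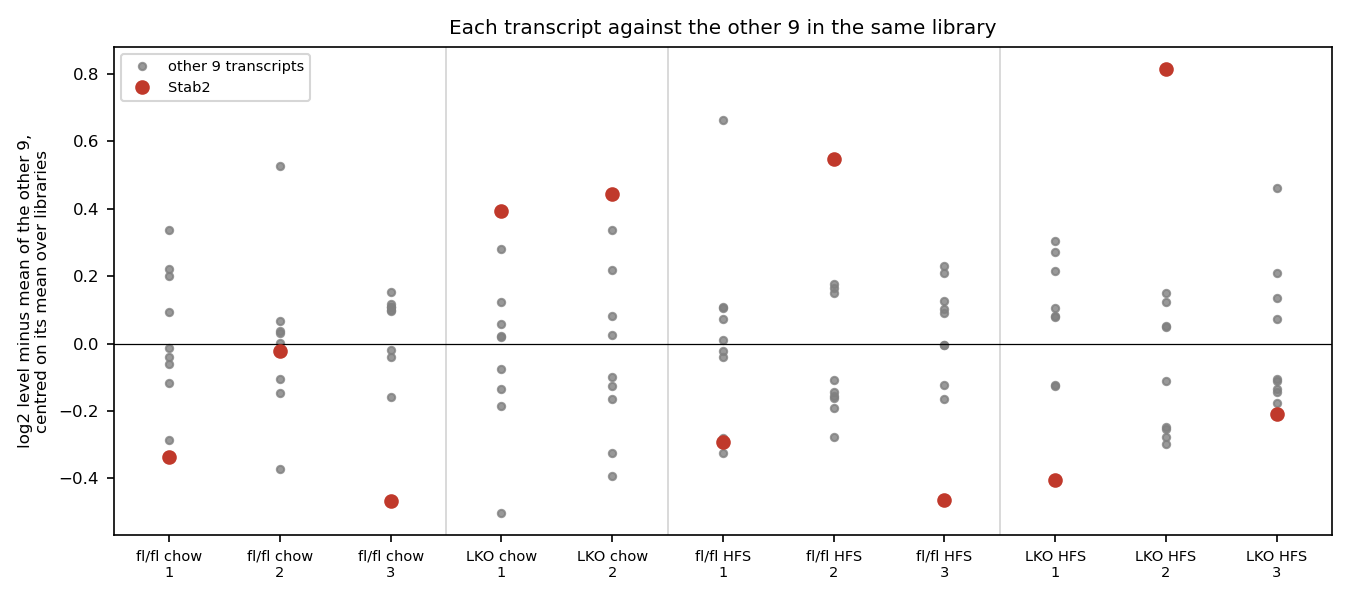
Log2 CPM of each transcript minus the mean of the other 9 in the same library (vertical axis, centred on the transcript's mean over the 11 libraries), by library (horizontal axis). *Stab2* (large points) ranges over 1.28 log2 units, with its highest points in the second HFS-fed LKO and the second HFS-fed fl/fl library, while the other 9 (small grey points) have SDs of at most 0.30.

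In chow-fed mice, all 10 transcripts had lower levels in *Xbp1* LKO than in *Xbp1* fl/fl hepatocytes, and 0 of 10 passed the adjusted threshold of 0.05 in edgeR's quasi-likelihood test. Of all genes tested, 49.7% had a lower level and 3.02% passed the threshold as lower. At an unadjusted p under 0.05, 9 of 10 were lower, against 10.5% of all genes, and in 10 of 10 the groups did not overlap, against 15.9% of all genes with that direction. The median log2 fold change was -1.29, against 0.0024 over all genes. *Flt4* had the largest difference (-1.84, SE 0.51, adjusted p = 0.0647 by edgeR), followed by *Lyve1* (-1.69, SE 0.61, adjusted p = 0.146), *Oit3* (-1.61, SE 0.49, adjusted p = 0.0926) and *Stab1* (-1.52, SE 0.48, adjusted p = 0.101). *Gpr182*, *Egfl7*, *Clec4g*, *Fcgr2b* and *Kdr* lay between -1.31 and -1.21, and *Stab2* had the smallest difference (-0.68, SE 0.32, adjusted p = 0.271). DESeq2 called 7 of 10 lower (5.32% of all genes), with adjusted p from 0.00259 (*Flt4*) to 0.0426 (*Egfl7*), and left *Lyve1* (0.0509), *Kdr* (0.0637) and *Stab2* (0.208) above the threshold. With the first *Xbp1* fl/fl chow library left out the median was -0.94 and 5 of 10 had an unadjusted p under 0.05. Without the second chow-fed *Xbp1* LKO library the median was -1.21 and 2 of 10 did; that fit leaves 1 library in the group, which is taken to vary like the others.

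The scaling of the libraries bears on this comparison. Scaled to library totals, the median of all genes moved to 0.33 and the calls over all genes went from 402 lower and 230 higher to 315 lower and 2685 higher. The 10 transcripts kept their direction, with a median of -0.97, and *Flt4* was the 1 called.

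In HFS-fed mice the same direction was seen with a smaller size. All 10 transcripts had a lower mean level in *Xbp1* LKO than in *Xbp1* fl/fl hepatocytes, 0 of 10 passed the adjusted threshold (edgeR, adjusted p from 0.301 to 0.765). Of all genes, 48.6% had a lower level and 2.16% passed the threshold as lower. At an unadjusted p under 0.05, 0 of 10 were lower, against 8.6% of all genes. Single libraries moved this: 4 of 10 were under 0.05 without the first *Xbp1* LKO library (median log2 fold change -0.84) and 4 without the second *Xbp1* fl/fl library (-0.79), while the median was -0.32 without the first *Xbp1* fl/fl library. DESeq2 called 0 as well, against 4.08% of all genes as lower, and 1 had an unadjusted p under 0.05 there. The median log2 fold change was -0.52, against 0.0083 over all genes. *Lyve1* had the largest difference (-1.0, SE 0.47) and *Oit3* the smallest (-0.31, SE 0.39). The groups overlapped for all 10, while 12.5% of all genes were lower without overlap. The first *Xbp1* LKO library lay above the second *Xbp1* fl/fl library in 9 of 10 transcripts. Scaled to library totals, the median was -0.28, while the median of all genes was 0.27.

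The diet comparison went the other way in both genotypes. In *Xbp1* fl/fl mice all 10 transcripts had higher mean levels after HFS feeding, with a median log2 fold change of 0.79 against -0.0056 over all genes, of which 48.8% were higher. None passed the adjusted threshold (0 of 10 by edgeR, against 0.135% of all genes as higher, and 0 by DESeq2, against 0.534%), and 3 had an unadjusted p under 0.05, against 4.53% of all genes. These were *Stab2* (0.90, SE 0.27, adjusted p = 0.312), *Egfl7* (0.80, SE 0.33, adjusted p = 0.514) and *Fcgr2b* (0.80, SE 0.35, adjusted p = 0.535). *Stab2* was the 1 transcript whose groups did not overlap, against 6.33% of all genes in that direction. For the others the first chow-fed library reached into the HFS-fed range. Without that library the median was 1.22 and 10 of 10 had an unadjusted p under 0.05, still with 0 past the adjusted threshold, the lowest adjusted p being 0.0541 by edgeR. Other libraries moved it the other way: 1 of 10 was under 0.05 without the second (median 0.53) or the third (0.65) chow-fed library, and without the first (0.54) or the third (0.70) HFS-fed library. Without the second HFS-fed *Xbp1* fl/fl library it was 9 of 10 (median 1.0), and without the first HFS-fed *Xbp1* LKO library, which enters through the shared spread and the scaling, 5 of 10 (0.80).

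In *Xbp1* LKO mice the diet difference was the largest of the 4. All 10 transcripts had higher levels after HFS feeding, against 49.5% of all genes, and the groups did not overlap in 10 of 10, against 16.7% of all genes. None passed the adjusted threshold by edgeR (0 of 10; 0.0451% of all genes passed as higher), while 10 of 10 had an unadjusted p under 0.05, against 7.49% of all genes. The median log2 fold change was 1.52, against -0.0027 over all genes. *Flt4* led again (2.25, SE 0.51, adjusted p = 0.157), followed by *Oit3* (1.75, SE 0.49, adjusted p = 0.229) and *Stab1* (1.71, SE 0.48, adjusted p = 0.229), and *Stab2* had the smallest value (1.22, SE 0.32, adjusted p = 0.197). DESeq2 called 9 of 10 higher (1.15% of all genes), all but *Lyve1* (adjusted p = 0.171), with *Flt4* at 0.000786. Each chow library of this group held 1 mouse and each HFS library 2. Over the fits that left out 1 library the median went from 1.24 to 1.81. The 1.24 was without the first HFS-fed *Xbp1* LKO library, with 9 of 10 at an unadjusted p under 0.05. Without the second chow-fed *Xbp1* LKO library, which leaves 1 in that group, the median was 1.34. Chow-fed *Xbp1* LKO libraries serve in this comparison and in that of the chow-fed genotypes, so these results are not independent.

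**Figure D3:**
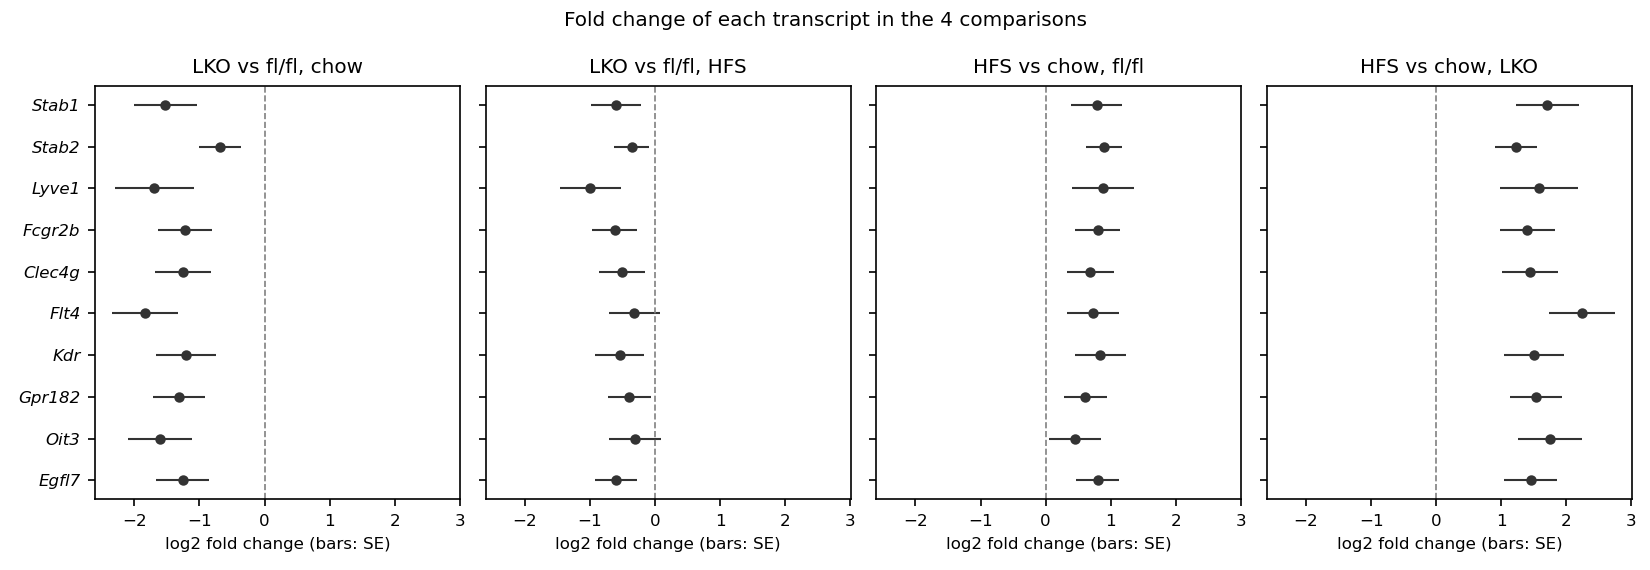
Log2 fold change of each transcript (points) with its standard error (bars) from edgeR's quasi-likelihood fit, in the 4 comparisons; the dashed line is 0. All points are left of 0 for LKO against fl/fl on either diet and right of 0 for HFS against chow in either genotype, with medians of -1.29, -0.52, 0.79 and 1.52 from left to right.

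Whether the genotype difference itself changed with diet was tested by the interaction of genotype and diet. All 10 transcripts had a positive term, meaning that the deficit of *Xbp1* LKO hepatocytes was smaller on the HFS diet, with a median of 0.72 against 0.0093 over all genes, of which 51.2% had a positive term. None of the 10, and 0 of 13303 genes, passed the adjusted threshold by edgeR. *Flt4* was the 1 transcript with an unadjusted p under 0.05 (1.52, SE 0.63, adjusted p = 0.792), against 3.69% of all genes. DESeq2 called 0 of the 10, against 0.158% of all genes, with 2 at an unadjusted p under 0.05. With the first *Xbp1* fl/fl chow library left out the median was 0.38, 0 of 10 had an unadjusted p under 0.05 and *Stab2* had a value of -0.091. The median was also lower without the first HFS-fed *Xbp1* LKO library (0.44) or the second HFS-fed *Xbp1* fl/fl library (0.45), and over the fits that left out 1 library 0 to 3 of 10 were under 0.05, with the 3 seen without the second chow-fed *Xbp1* fl/fl library. A difference between the diets in the size of the genotype effect was thus not shown for any of them.

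Genes that followed the 10 transcripts most closely were looked for among the 13293 other genes tested. The measure was the root mean square distance, in log2 units over the 11 libraries, between a gene's centred log2 CPM and the mean centred log2 CPM of the 10. The nearest were *Mrc1*, the mannose receptor (0.138), *Ehd3*, an endocytic trafficking protein (0.152), *Ushbp1* (0.158), *Aqp1*, a water channel (0.189), and *Eng*, the TGF-beta co-receptor endoglin (0.191). *Lrrc32* (0.192), *Dnase1l3*, a secreted nuclease (0.195), *Npr1*, a natriuretic peptide receptor (0.200), *Plxnd1*, a semaphorin receptor (0.206), and *Shank3* (0.213) came next. Over all other genes the median distance was 0.829. The members themselves had distances from 0.110 (*Clec4g*) to 0.258 (*Lyve1*), apart from *Stab2* with 0.398. These are descriptions over libraries that share groups, and 4 of the 10 nearest (*Mrc1*, *Ehd3*, *Aqp1* and *Dnase1l3*) stood on the list of other sinusoidal genes and *Eng* on that of general endothelial genes. Measured by the mean absolute distance, 8 of the 10 were the same genes.

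*Mrc1* had a mean of 9.58 CPM in chow-fed *Xbp1* fl/fl, 3.33 in chow-fed *Xbp1* LKO, 14.9 in HFS-fed *Xbp1* fl/fl and 11.4 CPM in HFS-fed *Xbp1* LKO libraries. On chow its log2 fold change between genotypes was -1.53 (SE 0.40, edgeR adjusted p = 0.0551), and that of *Aqp1* was -1.54 (SE 0.42, edgeR adjusted p = 0.0611). Of the 11 other sinusoidal genes tested, 10 were lower in chow-fed *Xbp1* LKO libraries, 6 of them at an unadjusted p under 0.05, and 0 passed the adjusted threshold; their median log2 fold change was -1.23. With HFS feeding of *Xbp1* LKO mice 10 of 11 were higher, 8 at an unadjusted p under 0.05 and 0 past the adjusted threshold (median 1.28). Between the HFS-fed genotypes 9 of 11 were lower and 2 higher in *Xbp1* LKO, 0 at an unadjusted p under 0.05. Their median of -0.13 was closer to that of all genes than the -0.52 of the 10 transcripts. *Gata4* and *Maf*, transcription factors used by sinusoidal endothelium and by other liver cells, lay far from the 10 transcripts (distances 0.811 and 0.817), with 10.5 to 14.4 CPM and 11.2 to 16.6 CPM over the libraries.

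Genes of endothelium in general also went this way on chow and with diet in *Xbp1* LKO mice. In the chow-fed genotypes 19 of 22 were lower in *Xbp1* LKO, 12 at an unadjusted p under 0.05 and 0 past the adjusted threshold (median -1.15), led by *Eng* (-1.26, SE 0.42, edgeR adjusted p = 0.121) and *Mmrn2*, a vessel wall protein (-1.49, SE 0.52, edgeR adjusted p = 0.135). In *Xbp1* LKO mice 22 of 22 were higher on the HFS diet, 17 at an unadjusted p under 0.05 and 0 past the adjusted threshold (median 1.66). Between the HFS-fed genotypes 16 of 22 were lower and 6 higher in *Xbp1* LKO (median -0.30, against -0.52 for the 10 transcripts). There 1 had an unadjusted p under 0.05 (*S1pr1*, higher) and 0 passed the adjusted threshold. *Nrp1* was the 1 gene of the list at an unadjusted p under 0.05 in the other direction on chow (0.75, SE 0.28, edgeR adjusted p = 0.161). At 63.6 to 207 CPM *Nrp1* was far above the rest, as was *S1pr1* at 39.5 to 65.0 CPM, and both lay far from the 10 transcripts (distances 0.938 and 0.799). The summed level of the list, these genes included, was 152 to 216 CPM in chow-fed *Xbp1* fl/fl and 184 and 201 CPM in chow-fed *Xbp1* LKO libraries, which overlapped.

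Markers of large vessels and lymphatics summed to 2.05 to 10.4 CPM. The highest of the list in every library was *Plvap*, a protein of endothelial diaphragms, with 1.02 to 8.11 CPM. Its highest values were in the first library of HFS-fed *Xbp1* LKO and of chow-fed *Xbp1* fl/fl. It was not most of the sum everywhere, with 1.34 of 3.24 CPM in the third chow-fed *Xbp1* fl/fl library. Of 11 markers 3 passed the filter (*Sox17*, *Plvap* and *Efnb2*), *Vwf* of large vessels had 1 to 18 counts per library, and *Pdpn* of lymphatics had 0 counts in all 11, where 3 counts would be 0.112 to 0.173 CPM. *Lyve1*, *Flt4* and *Kdr* are read in those endothelia as well. *Sox17* was the 1 of the 3 at an unadjusted p under 0.05 between the chow-fed genotypes (-2.42, SE 0.96, edgeR adjusted p = 0.185).

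Of the VEGF ligands, *Vegfa* had 132 to 193 CPM in all libraries and hepatocytes are a known source of it. *Vegfb* fell in chow-fed *Xbp1* LKO hepatocytes (-0.72, SE 0.17, edgeR adjusted p = 0.0361), from 13.0, 18.6 and 16.6 CPM in *Xbp1* fl/fl to 9.21 and 10.3 CPM. On the HFS diet *Vegfb* had 10.2, 8.91 and 9.99 CPM in *Xbp1* fl/fl and 8.88, 8.33 and 7.13 CPM in *Xbp1* LKO libraries (-0.26, SE 0.15, edgeR adjusted p = 0.439). *Vegfc*, a ligand of *Flt4*, had 1.94 to 3.45 CPM, with a log2 fold change of 0.32 (SE 0.24, edgeR adjusted p = 0.527) between the chow-fed genotypes. *Vegfb*, which binds VEGFR-1 and neither of the 2 receptors among the 10 transcripts, was the 1 of the 4 ligands tested that was called between the chow-fed genotypes. *Vegfa* (-0.04, SE 0.17, edgeR adjusted p = 0.941) and *Vegfd* (0.08, SE 0.58, edgeR adjusted p = 0.962) had values near 0.

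Markers of other non-parenchymal cells moved with the 10 transcripts in part. The stellate list summed to 66.6, 19.9 and 24.7 CPM in chow-fed *Xbp1* fl/fl and 14.3 and 17.0 CPM in *Xbp1* LKO libraries on chow, and to 62.2, 41.8 and 34.7 CPM and 82.1, 50.8 and 39.8 CPM on the HFS diet. All 12 tested stellate genes were lower in chow-fed *Xbp1* LKO libraries (4 at an unadjusted p under 0.05, 0 past the adjusted threshold, median -1.24), with *Lrat* at -1.82 (SE 0.52, edgeR adjusted p = 0.0735). With HFS feeding of *Xbp1* LKO mice all 12 were higher (9 at an unadjusted p under 0.05, 0 past the adjusted threshold, median 2.27). In the HFS-fed genotypes, where the 10 transcripts were all lower in *Xbp1* LKO, 9 of 12 stellate genes were higher (median 0.37).

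The Kupffer cell list summed to 102, 23.8 and 24.4 CPM in chow-fed *Xbp1* fl/fl and 27.1 and 40.2 CPM in *Xbp1* LKO libraries on chow, and to 63.5, 49.6 and 44.7 CPM and 63.6, 69.7 and 114 CPM on the HFS diet. All 14 tested Kupffer genes were lower in chow-fed and higher in HFS-fed *Xbp1* LKO libraries (medians -0.51 and 0.63), with 0 past the adjusted threshold and 0 and 1 at an unadjusted p under 0.05. Apart from the first *Xbp1* fl/fl library on chow, the Kupffer sum of the chow-fed *Xbp1* LKO libraries was above that of *Xbp1* fl/fl, whereas the sum of the 10 sinusoidal transcripts was below it. The defining markers *Clec4f* (82 to 544 counts) and *Vsig4* (13 to 156 counts) were present in every library. The leukocyte marker *Ptprc* had 7 to 73 counts and 4 of 11 leukocyte genes passed the filter, of which *Cd4* rose with HFS feeding in *Xbp1* fl/fl (1.99, SE 0.35, edgeR adjusted p = 0.0422). The part of stellate cells, Kupffer cells and overall carry-over of non-parenchymal cells in the levels of the 10 transcripts was not tested.

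Hepatocyte genes were mostly lower in *Xbp1* LKO libraries on both diets, as the 10 transcripts were, but not mostly higher with HFS feeding. The 16 listed summed to 158818 to 191082 CPM in chow-fed *Xbp1* fl/fl and 96005 and 57520 CPM in *Xbp1* LKO libraries on chow, and to 137645 to 157383 CPM and 75970 to 107621 CPM on the HFS diet. *Alb* alone held 86732 to 119367 CPM of this in chow-fed *Xbp1* fl/fl and 34259 and 14021 CPM in chow-fed *Xbp1* LKO libraries. On the HFS diet *Alb* held 64343 to 82040 CPM in *Xbp1* fl/fl and 29578 to 51478 CPM in *Xbp1* LKO libraries. Of the 16, 13 were lower in chow-fed and 14 in HFS-fed *Xbp1* LKO libraries, with 2 past the adjusted threshold on each diet: *Alb* (-2.14, SE 0.38, edgeR adjusted p = 0.0107) and *Serpina1c* (-0.84, SE 0.21, edgeR adjusted p = 0.0451) on chow, *Apoa1* (-1.45, SE 0.28, edgeR adjusted p = 0.0161) and *Serpina1c* (-0.84, SE 0.19, edgeR adjusted p = 0.0299) on the HFS diet. With diet in *Xbp1* LKO mice 5 of 16 were higher and 11 lower, where the 10 sinusoidal transcripts were all higher. Of the bile duct list 3 of 8 genes passed the filter, and *Wfdc2* (-2.88, SE 0.55, edgeR adjusted p = 0.0138) and *Sox9* (-1.54, SE 0.31, edgeR adjusted p = 0.0167) fell in *Xbp1* LKO hepatocytes on chow. *Wfdc2* fell on the HFS diet as well (-2.09, SE 0.43, edgeR adjusted p = 0.0222). Of the red cell list 1 of 5 passed, *Alas2*, with a log2 fold change of 0.04 (SE 0.16, edgeR adjusted p = 0.928) between the chow-fed genotypes.

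**Figure D4:**
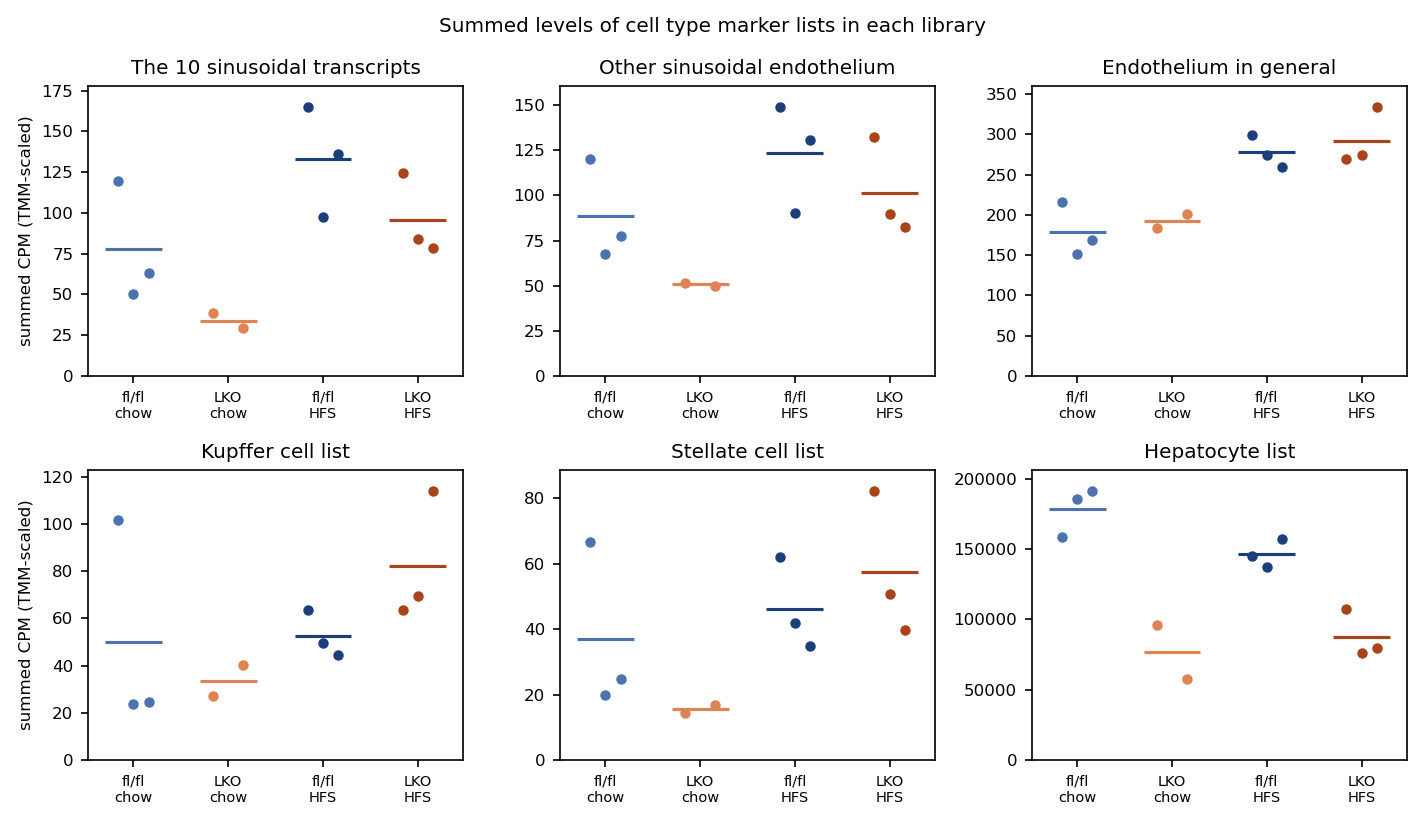
Summed TMM-scaled CPM (vertical axes, each starting at 0 and with its own scale) of the 10 transcripts and of 5 marker lists in each library, by group (horizontal axis), with points for libraries and lines for group means. The first chow-fed fl/fl library is the high point of its group for the 10 transcripts (119.7 CPM), Kupffer cells (102 CPM) and stellate cells (66.6 CPM). It is the low point for the hepatocyte sum, in which *Alb* alone had 86732 CPM there against 113601 and 119367 CPM.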

How the data were processed

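RNA of isolated hepatocytes was sequenced as single-end reads of 50 bases in 11 libraries. The deposited files hold raw counts, whole numbers for each Ensembl gene that the authors had neither scaled nor filtered. The study's methods name kallisto, tximport and the TruSeq Stranded mRNA kit, while the submitters' processing notes name cutadapt 1.13, STAR, HTSeq 0.6.1p1 and mm10, and the labels a total RNA kit; the route that made these counts, and whether counting used strand, is not given in the sources used here. kallisto would split reads shared by paralogs and HTSeq would drop them.

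Groups came from the sample labels. Of 54232 identifiers, 54165 matched GENCODE M21, which gave symbols, positions and exon lengths. With edgeR 4.0.16 (R 4.3.3), genes were filtered (filterByExpr, minimum count 10), scaled by TMM and fitted as 4 groups over all 11 libraries by the quasi-likelihood test, with Benjamini-Hochberg adjustment over 13303 genes and a threshold of 0.05. Contrasts were genotype on each diet, diet in each genotype, and their interaction. DESeq2 1.42.0, the study's own tool, was an alternative, since a quasi-likelihood test was the main one chosen for counts. Distances between genes used log2 CPM (prior count 2). Protein identity had been planned and was replaced by shared 50-base sequences of the transcripts. Chi-square per degree of freedom between replicates was 27.9 to 101.6, far above sampling noise, so no counting intervals are given. The SE of a log2 fold change is its size divided by the root of edgeR's F.

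The code was tested on simulated counts for the chow-fed genotypes with 13026 genes: edgeR recovered 44 of 100 genes changed 2-fold and 82 of 100 changed 4-fold with 6 false calls, and DESeq2 58, 83 and 32. The members, the gene lists and the tests were chosen with earlier results of these data known. Named genes are the 10 members, *Xbp1*, *Fcgr3*, the 10 nearest genes and, from each other list and comparison, up to 5 genes past the threshold or otherwise the 2 with the smallest p; defining markers, *Nrp1*, *S1pr1*, *Gata4*, *Maf*, *Vegfa*, *Vegfc*, *Vegfd*, *Plvap* and *Spp1* were also named after their values were seen. Alternatives were DESeq2, RLE, upper quartile and library total scaling, fits to the compared groups alone, a stricter or no filter, replicate blocks and leaving out each library.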

Additional observations from a re-analysis of the deposited data

Results flagged for a closer look

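The summed level of the Kupffer cell markers, given beside the 10 sinusoidal transcripts, went in opposite directions with genotype on the 2 diets. On chow both *Xbp1* LKO libraries lay below the mean of the *Xbp1* fl/fl libraries, with a log2 ratio of means of -0.57, and on the HFS diet all 3 *Xbp1* LKO libraries lay above it, with a log2 ratio of means of 0.65, a difference of 1.22. This difference in the summed level was not tested. The mean of the chow-fed *Xbp1* fl/fl group was carried by its first library (102 CPM against 23.8 and 24.4 CPM). For the 10 sinusoidal transcripts no such opposite directions were seen. The groups of 2 or 3 libraries were too small to look for single outlying values.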

How the results depend on the processing

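All 10 transcripts kept the direction of their difference under the alternatives run, in all 5 contrasts, with 1 exception: the interaction of *Stab2* was -0.091 (edgeR adjusted p = 0.970) with the first *Xbp1* fl/fl chow library left out, and went from -0.091 to 0.51 over the fits that left out 1 library. The calls depended on the processing. The number of the 10 called between chow-fed genotypes was 0, and it was 7 by DESeq2, 10 with no filter on low counts, 1 with library totals, and 0 to 1 when single libraries were left out (*Flt4*, without the second HFS-fed *Xbp1* fl/fl library). Between HFS-fed genotypes it was 3 with no filter, and for diet in *Xbp1* fl/fl mice 5 with no filter. For diet in *Xbp1* LKO mice it was 9 by DESeq2 and 10 with no filter, and for the interaction 2 with no filter. The fits with no filter tested 26016 genes. Genotype calls of the 10 were lower there, beside 831 genes called lower on chow and 704 on the HFS diet. Diet calls were higher, beside 251 genes called higher in *Xbp1* fl/fl and 459 in *Xbp1* LKO mice. The 2 interaction calls were positive, beside 161 positive calls over all genes. Causes were not tested.

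Over all genes, the 632 called between chow-fed genotypes became 1130 by DESeq2, 3000 with library totals, 1507 with no filter, 233 with only the groups compared, and 69 to 762 when single libraries were left out. The 543 called between HFS-fed genotypes became 1007 by DESeq2, 1483 with library totals, 1438 with no filter, and 184 to 662. The 57 called for diet in *Xbp1* fl/fl became 181 by DESeq2, 499 with no filter and 6 to 59, and the 8 for diet in *Xbp1* LKO 213 by DESeq2, 722 with no filter, 0 with only the groups compared and 0 to 36. The 0 called for the interaction became 29 by DESeq2 and 269 with no filter. The counts with no filter are out of 26016 genes.

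Same-numbered libraries of different groups are different animals. Over all genes tested, their deviations from the group means had correlations of -0.20 to 0.23 (mean -0.0087, 15 pairs). The numbers were not taken to pair the samples. Correlations over all genes cannot show a pairing limited to a few transcripts. For the 10 transcripts library 1 was the highest of each group for at least 9, and a pairing limited to them was not tested. With the replicate number as a block, 7 of the 10 were called between chow-fed genotypes, 1 between HFS-fed genotypes and 2 for diet in *Xbp1* LKO mice. Over all 13303 genes, 455 (309 lower), 412 (225 lower) and 19 (12 higher) were called in these contrasts. With the second chow-fed *Xbp1* LKO library numbered 3, as its file is, the block gave 8, 1 and 7. Over all genes it then gave 488 (331 lower), 429 (239 lower) and 53 (42 higher). Depth limits *Lyve1* most, which had as few as 10 counts in a library.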
